A study of Homo sapiens with 4 samples.

Results

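The glycolysis, lactate transport and hypoxia genes described here are 40 genes given by symbol. They cover glucose uptake, the glycolytic enzymes, the enzymes that direct pyruvate, lactate carriers, the oxygen-sensing pathway and genes that low oxygen induces. Of the 40, 36 were measured by at least 1 probe set that names no other gene, on 118 probe sets in all, and all 36 were among the 10823 genes bright enough to be kept. Every probe set of SLC2A3 is shared with SLC2A14, and SLC16A1, SLC16A3 and CA9 are not analysed here.

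The study profiled RNA of REC-1 and Z138, 2 established human lines of mantle cell lymphoma (MCL), a B-cell cancer driven by cyclin D1. Each line was hybridised to Affymetrix arrays once as a control and once after CC-292, which blocks the kinase BTK, a relay of the B-cell receptor signal. The 4 groups of 1 array are therefore REC-1 control, REC-1 with CC-292, Z138 control and Z138 with CC-292. The labels state 48 h of treatment, but the title of the Z138 control carries no time, and the dose is 1 uM in the treatment protocol and 1 mM in the titles of the treated arrays. No vehicle is named for the controls. Each line is a single culture-adapted tumour, so a difference between the lines holds for these lines only.

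Glycolysis splits glucose into pyruvate and yields ATP without oxygen. Lactate dehydrogenase turns pyruvate into lactate, which leaves the cell through monocarboxylate transporters. Pyruvate dehydrogenase kinases inactivate pyruvate dehydrogenase, which uses pyruvate in the mitochondria. When oxygen is present, prolyl hydroxylases of the EGLN family mark the HIF-1 alpha protein for destruction. When oxygen falls, HIF-1 alpha is spared and switches on genes that carry a short hypoxia response element, among them many glycolytic genes. Fast-growing lymphoma cells often run glycolysis at a high rate, and MYC and PI3K signalling also drive it, so these genes do not report oxygen alone.

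Levels are deposited log2 signals of the brightest probe set of a gene, and a difference of 1 is 2-fold. With 1 array per group no p-value is given for 1 comparison of arrays, and the SD over the probe sets of a gene, which holds no error between cultures, is printed instead. Where a gene has 1 bright probe set, the pooled SD of 0.31 (REC-1 difference), 0.25 (Z138 difference) or 0.48 (difference between controls) applies. Levels of different genes are not compared, since probe sets differ in response. A set of cells that is poorer in a transcript and one with fewer cells that make it cannot be told apart in these bulk samples.

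The B-cell identity of both lines was checked first. The B-cell genes MS4A1, CD79A, CD79B, PAX5 and CD22 lay between 6.23 and 12.03 and the MCL genes CCND1 and SOX11 between 8.43 and 11.95, whereas 11 measured markers of other cells lay between 2.90 and 6.77, and 5 of them reached the brightness minimum of 4.63 on some array. The summed B-cell signal (log2) was 13.16 and 13.29 in REC-1, control first, and 12.56 and 12.34 in Z138, and that of the other cells lay between 7.81 and 8.10. For ACTB, the 3' signal exceeded the 5' signal, which reads RNA integrity, by 0.53 to 0.77 in REC-1 and 1.11 to 1.12 in Z138. For GAPDH the same measure was -0.32 and -0.31 in REC-1 and -0.28 and -0.24 in Z138. The 9 spiked-in hybridization controls, which hold no RNA of the cells, were a median of 0.33 brighter in the REC-1 than in the Z138 control. With CC-292 all 9 were lower in REC-1, by a median of -0.07, and 8 of 9 higher in Z138, by a median of 0.09. Their difference of differences had a median of -0.20, with all 9 below 0. The part of these values in the line and CC-292 differences was not tested.

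The promoter stretches of 4 genes are printed because the array results turn on 3 of them, ANKRD37, ADM and SLC16A4, and because LDHA is the standard example of a glycolytic gene induced by low oxygen. The sequences come from RefSeq (GRCh38.p14) and run 5' to 3' on the strand of the gene up to the base before its start. Capitals mark ACGTG or GCGTG, the core of the hypoxia response element, on either strand. LDHA and SLC16A4 were added after their values were seen, and so was GCGTG. The stretches are chr4:185396591-185396840 (+ strand) for ANKRD37, chr11:10304842-10305072 (+ strand) for ADM, chr11:18394313-18394562 (+ strand) for LDHA and chr1:110391027-110391276 (- strand) for SLC16A4. That of ANKRD37 lies within the annotated span of the neighbouring gene LRP2BP. That of ADM was shortened to the 231 bases past the end of a neighbouring annotated gene, and the others overlap no other annotated gene.
ANKRD37: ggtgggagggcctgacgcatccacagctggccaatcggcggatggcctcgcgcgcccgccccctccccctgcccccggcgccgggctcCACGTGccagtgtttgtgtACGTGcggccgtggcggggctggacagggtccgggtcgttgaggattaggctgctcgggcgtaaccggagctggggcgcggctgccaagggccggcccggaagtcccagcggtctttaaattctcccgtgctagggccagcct
ADM: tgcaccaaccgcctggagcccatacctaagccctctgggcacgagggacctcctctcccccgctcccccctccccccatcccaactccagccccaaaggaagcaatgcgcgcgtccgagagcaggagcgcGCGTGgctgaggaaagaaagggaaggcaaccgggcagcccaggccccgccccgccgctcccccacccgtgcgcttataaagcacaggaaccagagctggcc
LDHA: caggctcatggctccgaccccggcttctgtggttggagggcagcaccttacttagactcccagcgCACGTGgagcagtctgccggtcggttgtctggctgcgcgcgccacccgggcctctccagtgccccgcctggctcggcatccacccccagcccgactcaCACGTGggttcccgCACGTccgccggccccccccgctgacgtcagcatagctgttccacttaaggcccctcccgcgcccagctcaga
SLC16A4: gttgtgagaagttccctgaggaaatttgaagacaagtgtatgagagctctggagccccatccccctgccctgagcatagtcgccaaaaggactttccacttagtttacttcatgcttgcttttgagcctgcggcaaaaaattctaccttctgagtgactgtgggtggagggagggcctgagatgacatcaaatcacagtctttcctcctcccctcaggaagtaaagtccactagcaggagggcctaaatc

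In ANKRD37 there were 3 matches of ACGTG, which start 162, 161 and 143 bases before the gene's start. The first 2 of them form the palindrome CACGTG, an E-box, which counts as ACGTG on each strand. LDHA held 5 matches, 4 of them in 2 copies of CACGTG that start 185 and 87 bases before the start. ADM held no ACGTG and 1 GCGTG, 101 bases before the start, and the SLC16A4 stretch held neither motif. Of the 40 listed genes, 34 have a promoter window in the table. VEGFA, BNIP3L, NDRG1, HILPDA, SLC2A3 and SLC16A1 do not. Windows of 300 bases were read, from 250 before to 50 after the start, 1 window per gene. Where a gene has several starts, the one farthest upstream was taken. ACGTG was present in 16 of 34 (47.1%) against 21.6% of 27305 genes. CACGTG was present in 5 of 34 (14.7%) against 7.41%, and GCGTG in 16 of 34 (47.1%) against 36.4%. These shares were not tested, and the list was chosen to hold genes that low oxygen induces. A match is a run of letters and not a measured binding site.

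The levels of the 36 genes are shown by array in the plot ordered by role. In 30 of the 36 genes the level reached the 70th percentile of all values (6.61) on some array, and only PFKFB4, SLC16A4 and NDRG1 fell below the brightness minimum on any array.

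**Figure D1:**
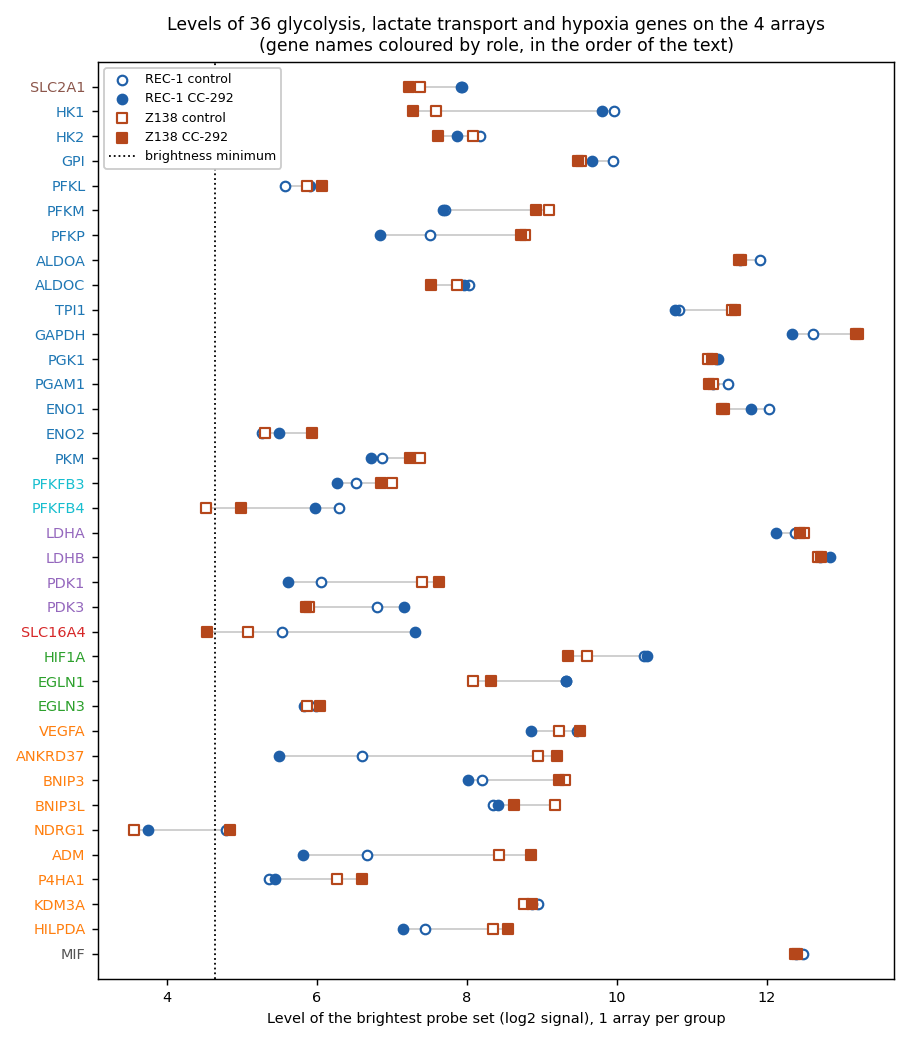
Level of the brightest probe set of each of the 36 measured genes (log2 signal, horizontal axis) on the 4 arrays, 1 array per group; circles are REC-1 and squares Z138, open symbols are controls and filled symbols CC-292, and gene names are coloured by role. The REC-1 and Z138 symbols are well apart for HK1, PDK1, ANKRD37 and ADM, while those of LDHB, MIF and PGK1 nearly coincide.

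The first comparison asked what differed after CC-292 in REC-1. Several hypoxia-inducible genes were lower on the CC-292 array, led by ANKRD37 (2.15-fold lower), ADM (1.82-fold) and VEGFA (1.53-fold). The monocarboxylate transporter family gene SLC16A4 was 3.41-fold higher. The glycolytic enzymes differed little, with PFKP 1.58-fold lower as the only one past 1.5-fold. Of the 36 genes, 1 was at least 2-fold higher, where 0.841% of all genes were, and 2 were at least 2-fold lower, where 0.758% were. One of the lower genes, NDRG1, was below the brightness minimum with CC-292, and with values under the minimum raised to it 1 gene, ANKRD37, was left. At 1.5-fold, 1 was higher against 4.32% of all genes and 5 were lower against 4.73%. The median of the 36 differences was -0.15, with 26 below 0, beside a median of -0.05 and 57.8% below 0 over all genes.

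Glucose uptake was represented by SLC2A1, which encodes the glucose transporter GLUT1, with levels of 7.92 in the control and 7.93 with CC-292. The hexokinase gene HK1 was at 9.96 and 9.81, a difference of -0.15, but only 1 of its 4 probe sets was below 0 (mean 0.08). HK2, which encodes the inducible hexokinase, was at 8.18 and 7.86 (difference -0.32). The second, fainter HK2 probe set, at 4.53 and 5.61, went the other way by 1.07, so the direction for HK2 is not settled. PFKP, a phosphofructokinase subunit gene measured by 1 probe set, was at 7.51 in the control and 6.84 with CC-292, a difference of -0.66. The other subunits differed by -0.04 (PFKM) and 0.33 (PFKL, SD 0.24 over 3 probe sets).

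Among the other enzymes, small differences below 0 recurred on the brightest probe sets, while some lay near or above 0. ALDOA (aldolase A) differed by -0.28 (SD 0.06 over 2 probe sets), PGAM1 (phosphoglycerate mutase) by -0.20 (SD 0.10 over 4 probe sets, all below 0) and ENO1 (enolase) by -0.23 (SD 0.02 over 2 probe sets). Probe sets that ENO1 shares with EDARADD and with TMEM11, left out of the gene value, gave -0.10 and -0.03. LDHA, the lactate dehydrogenase subunit gene that favours lactate formation, differed by -0.25 (SD 0.10 over 4 probe sets, all below 0), and GPI by -0.27 on 1 probe set. GAPDH differed by -0.28 on its gene probe set, but by -0.05, -0.08 and -0.06 on the 3', middle and 5' control probe sets of the array. Differences were near 0 on the brightest probe sets of PGK1 (0.03), TPI1 (-0.05) and ALDOC (-0.07). Over all 9 probe sets of PGK1 the mean was -0.11, with 2 above 0 and the lowest at -0.25. All 5 probe sets of ALDOC were below 0, with a mean of -0.22, and the 3 of TPI1 ran from -0.10 to 0.21. ENO2 was at 0.22 and LDHB, the other dehydrogenase subunit gene, at 0.13. In all, 12 of the 15 glycolytic enzymes were below 0 with a median of -0.15, beside 57.8% of all genes and a median of -0.05. After cyclic loess scaling 11 of 15 were below 0 with a median of -0.12, beside 5537 of 10823 genes and a median of -0.01. The 12 include HK1 and HK2, whose probe sets disagreed in sign.

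PKM, the pyruvate kinase gene, differed by -0.15 (SD 0.22 over 3 bright probe sets, all below 0). A brighter probe set is annotated with the symbols PKM and PKM2, and only for this was it left out of the gene value. Counted as PKM, it would have been the gene's brightest. It was at 9.20 in the control and 8.75 with CC-292, a difference of -0.46. Among regulators, PFKFB3 and PFKFB4, which set the level of the activator of phosphofructokinase, differed by -0.25 and -0.32. A second PFKFB3 probe set went the other way, by 0.63. The kinase genes that inactivate pyruvate dehydrogenase split, with PDK1 at -0.45 (SD 0.21 over 2 probe sets) and PDK3 at 0.35 on 1 probe set.

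SLC16A4 belongs to the monocarboxylate transporter family, whose best known lactate carriers are SLC16A1 and SLC16A3. In REC-1 its level was 5.54 in the control and 7.31 with CC-292, a difference of 1.77 (SD 0.32 over 4 probe sets, all above 0, from 1.04 to 1.77). Only 1 of the 10823 genes had a higher difference in REC-1.

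On their brightest probe sets the oxygen-sensing genes differed little on the REC-1 arrays. HIF1A, which encodes HIF-1 alpha, was at 10.36 and 10.40, a difference of 0.04 on the brightest probe set, with the other probe sets at up to 0.50 and all 8 above 0. EGLN1, the main oxygen sensor gene, was at 9.32 on both arrays, but its other probe sets gave 0.55 and -0.42 (SD 0.49 over 3 probe sets). EGLN3, a hypoxia-induced hydroxylase gene, differed by -0.15 (SD 0.41 over 3 probe sets).

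Among the other hypoxia-inducible genes, 7 of 9 were below 0 in REC-1 (57.8% of all genes were), with a median of -0.30. With each other scaling tried 7 of 9 stayed below 0. The 7 include KDM3A, whose probe sets disagreed in sign, while BNIP3L, counted above 0, had a mean of -0.09 over its probe sets. ANKRD37, a small ankyrin-repeat protein gene known mainly as a HIF target, was at 6.60 in the control and 5.49 with CC-292, a difference of -1.11. Its second probe set did not reach the brightness minimum on any array, and the mean of both was -0.46. ADM, which encodes the vasodilator peptide adrenomedullin, was at 6.67 and 5.81, a difference of -0.87. Its second probe set gave -1.45 and the faintest one 0.28. VEGFA, the angiogenic growth factor gene, was at 9.47 and 8.86, a difference of -0.61 (SD 0.35 over 10 probe sets, 9 of them below 0).

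NDRG1, a stress and hypoxia response gene, was at 4.78 and 3.74 on its brightest probe set. The second value lies under the brightness minimum of 4.63, and against that minimum the gene was at least 1.11-fold lower (measured difference -1.05). None of its other 5 probe sets reached the brightness minimum, and with the median over all 6 the difference was 0.05, so the NDRG1 value rests on 1 dim probe set. HILPDA, which encodes a lipid droplet protein, differed by -0.30 and -0.52 on its 2 probe sets. The mitophagy receptor genes BNIP3 and BNIP3L differed by -0.19 (SD 0.12 over 2 probe sets) and 0.07 (SD 0.21 over 6 probe sets). The histone demethylase gene KDM3A and the collagen prolyl hydroxylase gene P4HA1 differed by -0.08 and 0.09, and the cytokine gene MIF by -0.10. Only 1 of the 3 KDM3A probe sets was below 0 (mean 0.06).

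In Z138, compared in the same way, the hypoxia-inducible genes were mostly a little higher on the CC-292 array, with ADM 1.34-fold, P4HA1 1.27-fold, VEGFA 1.21-fold and ANKRD37 1.19-fold higher. The neuronal enolase gene ENO2 was 1.54-fold higher. BNIP3L was 1.46-fold lower on its brightest probe set, the lowest of 6 (mean log2 difference -0.20). Of the 36 genes, 1 was at least 2-fold higher against 0.213% of all genes. This was NDRG1, whose control value lay under the brightness minimum, and with such values raised to the minimum the count was 0. None was at least 2-fold lower against 0.351%. At 1.5-fold, 2 were higher against 2.18% and none was lower against 2.52%. The median of the 36 was 0.03 with 17 below 0, beside a median of 0.01 and 48.1% below 0 over all genes.

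SLC2A1 was at 7.38 in the Z138 control and 7.23 with CC-292. HK1 was at 7.59 and 7.29, a difference of -0.30 (SD 0.20 over 4 probe sets, 3 below 0), and HK2 at 8.08 and 7.62, a difference of -0.47 that its fainter second probe set did not share (0.22). ALDOC differed by -0.35 (SD 0.37 over 5 probe sets, 4 below 0). ENO2 was at 5.31 and 5.93 on its 1 probe set, a difference of 0.62. Other abundant glycolytic enzymes were nearly level in Z138, at 0.03 for ALDOA, 0.03 for TPI1, -0.02 for GAPDH, 0.06 for PGK1, -0.06 for PGAM1 and 0.03 for ENO1. LDHA was at -0.06 (SD 0.19 over 4 probe sets), LDHB at 0.05, and the PKM and PKM2 probe set at 0.01. Of the 15 glycolytic enzymes 9 were below 0, with a median of -0.04, beside 48.1% of all genes and a median of 0.01.

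PFKFB4 was at 4.52 in the Z138 control, just below the brightness minimum, and 4.99 with CC-292, a difference of 0.47, whereas PFKFB3 differed by -0.15 (SD 0.02 over 2 probe sets). PDK1 was at 7.40 and 7.62, a difference of 0.23, with 0.83 on its second probe set, and PDK3 was at -0.04. SLC16A4 was at 5.07 and 4.53, a difference of -0.55 (SD 0.39 over 4 probe sets, 3 below 0), and its CC-292 level lay below the brightness minimum. Against that minimum the gene was at least 1.36-fold lower.

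HIF1A was at 9.60 and 9.34 in Z138, a difference of -0.26 (SD 0.08 over 8 probe sets, all below 0). EGLN1 and EGLN3 differed by 0.24 and 0.17 (SD 0.36 and 0.23 over 3 probe sets each). Of the 9 other hypoxia-inducible genes 7 were above 0, with a median of 0.26, where 48.1% of all genes were below 0. ADM was at 8.43 and 8.85, a difference of 0.43 (SD 0.22 over 3 probe sets, all above 0). VEGFA was at 9.23 and 9.51, a difference of 0.27 (SD 0.12 over 10 probe sets, 9 above 0), and ANKRD37 was at 8.95 and 9.21, a difference of 0.26 with 0.29 on its dim probe set. HILPDA differed by 0.20 (SD 0.03 over 2 probe sets), P4HA1 by 0.34 and KDM3A by 0.11 (SD 0.08 over 3 probe sets). NDRG1 was at 3.56, under the minimum, and 4.83, at least 1.15-fold higher against that minimum. The measured difference of 1.27 was matched by none of its 5 dim probe sets, and the median over all 6 was 0.11. BNIP3L differed by -0.55 (SD 0.21 over 6 probe sets, 5 below 0) and BNIP3 by -0.09 (SD 0.17 over 2 probe sets).

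The CC-292 differences of the lines were then set side by side. Of the 36 genes, 14 were lower in REC-1 and higher in Z138, a pattern seen in 31.4% of all genes, and 5 were higher in REC-1 and lower in Z138, against 21.6%. A further 12 were lower in both lines and 5 higher in both. Of the 9 other hypoxia-inducible genes, 6 were lower in REC-1 and higher in Z138, namely VEGFA, ANKRD37, NDRG1, ADM, KDM3A and HILPDA. KDM3A is counted by its brightest probe set, and its mean over probe sets in REC-1 was 0.06. No array was shared between these 2 comparisons.

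**Figure D2:**
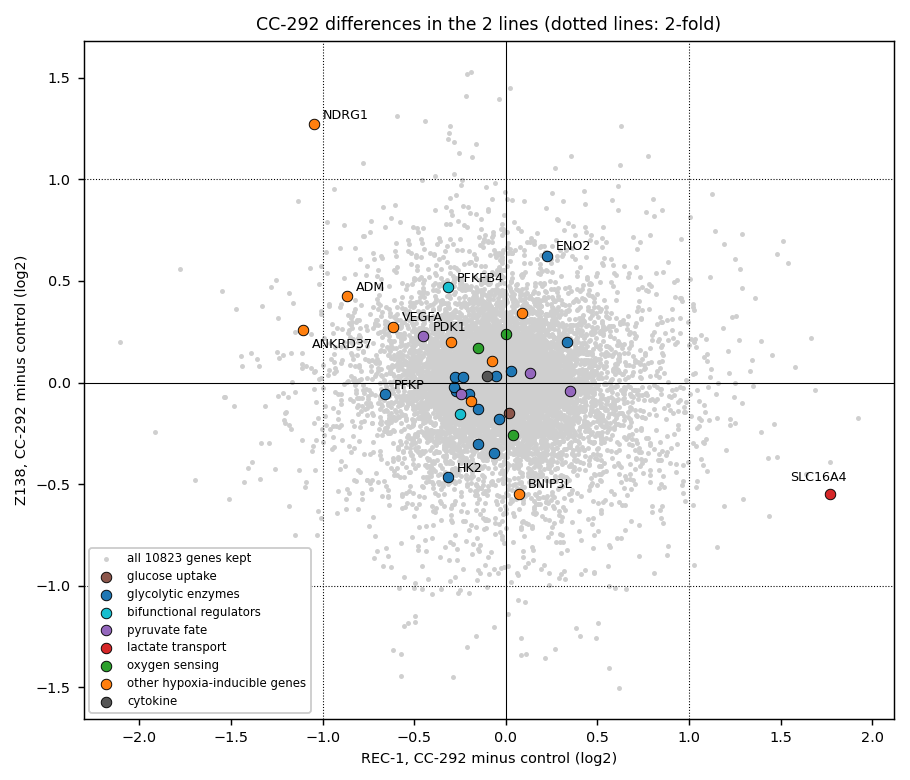
CC-292 minus control on the log2 scale in REC-1 (horizontal axis) and Z138 (vertical axis), 1 array per group. Grey points are all 10823 genes kept and coloured points the 36 genes by role; SLC16A4 lies at 1.77 and -0.55, and ADM and ANKRD37 lie in the quadrant lower in REC-1 and higher in Z138. NDRG1 (4.78, 3.74, 3.56 and 4.83) is drawn with 2 values under the brightness minimum.

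The difference of the differences, REC-1 minus Z138, was 2.32 for SLC16A4. With values under the brightness minimum raised to it, as 1 of the 4 SLC16A4 values is, it was 2.21, and in both cases it was the highest of all 10823 genes. It was -1.36 for ANKRD37, -1.29 for ADM and -0.89 for VEGFA. For NDRG1 the measured value was -2.32, and -0.35 with its 2 values under the minimum raised to it. Thus 1 of the 36 genes was past 2-fold on the higher side, against 2.07% of all genes, and 3 on the lower side, against 2.04%. At 1.5-fold these were 2 against 7.72% and 7 against 8.81%. Below 0 were 25 of the 36, against 56.9% of all genes. With 1 array per group, these values have no test.

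The effect of CC-292 averaged over both lines was tested with limma across all 10823 genes, with the line as a block. No gene passed an adjusted p of 0.05, among the 36 or elsewhere (0% of all genes). At an unadjusted p under 0.05 there were 472 genes (4.36%), none of them among the 36. Nearest were HK2, at -0.39 (SE 0.16, unadjusted p = 0.0524 in limma, lower in both lines), and ENO2, at 0.42 (SE 0.18, unadjusted p = 0.0579 in limma, higher in both lines). The spread in this fit is the difference in response between the lines, on 1 residual degree of freedom, so a gene with opposite differences in the lines has a large error here. The SE was 0.52 for SLC16A4 and NDRG1.

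A further comparison set REC-1 beside Z138. On the control arrays HK1 was 5.18-fold higher in REC-1 and EGLN1 2.35-fold higher. PFKFB4, at 6.29 and 4.52, was at least 3.15-fold higher against the brightness minimum, which its Z138 control did not reach. ANKRD37 was 5.11-fold lower in REC-1, ADM 3.37-fold, PFKM 2.62-fold, PDK1 2.53-fold, PFKP 2.41-fold and BNIP3 2.16-fold lower. NDRG1, at 4.78 and 3.56, was at least 1.11-fold higher on the same footing (measured difference 1.22). Of the 36 genes, 4 were at least 2-fold higher in REC-1 as measured, or 3 with values raised to the minimum, where 11.9% of all genes were, and 6 at least 2-fold lower, where 12.4% were. At 1.5-fold, 7 were higher against 22.2% and 11 lower against 21.7%. These counts are near the background, apart from the 11 lower at 1.5-fold, which lie above it. That gap was not tested, so the counts are no result about the list. Its median was 0.10 with 16 of 36 below 0, beside 0.02 and 48.9% over all genes. Of the 24 genes with several bright probe sets, 22 had the same sign on all of them in this comparison, against 12 for the REC-1 and 9 for the Z138 effect of CC-292. The same count over all genes was not made, so this is no result about the list.

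Averaged over both treatments and tested with limma over all genes (treatment as a block), 6 of the 36 genes were higher in REC-1 at an adjusted p under 0.05, against 21.7% of all genes, and 12 were lower, against 23.1%. Both arrays of a line come from the same cell line, so this test compares these 2 lines and its error is the unequal response to CC-292. The share of higher genes was a little below the background and that of lower genes above it. Neither gap was tested. The control arrays compared above are among those used.

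**Figure D3:**
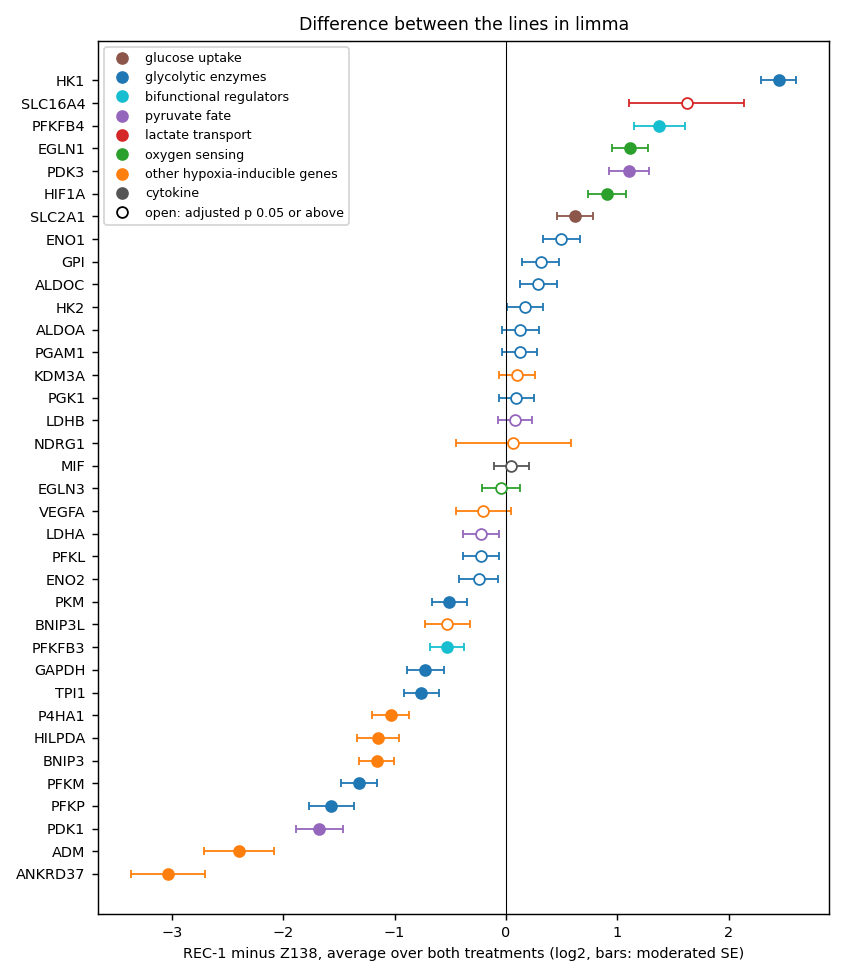
REC-1 minus Z138 for each of the 36 genes, averaged over control and CC-292 arrays (log2, horizontal axis), with bars for the moderated SE of limma. Filled points passed an adjusted p of 0.05; HK1 stands highest at 2.45 and ANKRD37 lowest at -3.03.

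In glucose uptake and phosphorylation, HK1 differed by 2.45 (SE 0.16, adjusted p = 0.000268 in limma). All 4 of its probe sets were between 1.88 and 2.37 higher in the REC-1 control, with no overlap between the lines on any of them. HK2 did not pass (0.17, adjusted p = 0.427 in limma). SLC2A1 was higher in REC-1 by 0.62 (SE 0.16, adjusted p = 0.0256 in limma).

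Of the phosphofructokinase subunit genes, PFKM and PFKP were lower in REC-1. PFKM was at 7.71 and 7.67 in REC-1 and 9.10 and 8.92 in Z138, a difference of -1.32 (SE 0.16, adjusted p = 0.00203 in limma). PFKP was at 7.51 and 6.84 in REC-1 and 8.77 and 8.72 in Z138, a difference of -1.57 (SE 0.20, adjusted p = 0.00254 in limma). Both genes were read by 1 probe set each, and the REC-1 and Z138 values did not overlap. PFKL, the liver-type subunit gene, was at 5.57 and 5.90 in REC-1 and 5.86 and 6.06 in Z138 and did not pass (-0.22, adjusted p = 0.298 in limma). PFKFB4 was higher in REC-1 by 1.38 (adjusted p = 0.00578 in limma), while PFKFB3 was lower by 0.53 on the log2 scale.

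The remaining glycolytic enzymes held smaller differences. TPI1, the triosephosphate isomerase gene, was at 10.83 and 10.77 in REC-1 and 11.54 and 11.58 in Z138 (difference -0.76, adjusted p = 0.0123 in limma). GAPDH was at 12.63 and 12.35 in REC-1 and 13.22 and 13.20 in Z138 (difference -0.73, adjusted p = 0.0172 in limma), and its 3 control probe sets gave -0.71, -0.76 and -0.67 between the control arrays. PKM was lower in REC-1 with -0.51 (adjusted p = 0.0439 in limma), a call lost with the mean of its probe sets and without a brightness filter. The brighter PKM and PKM2 probe set differed by only -0.08 between the controls, so the PKM call rests on a dimmer probe set. PFKFB3 (adjusted p = 0.04 in limma) lost its call under the same 2 settings. Over the alternatives the adjusted p of limma ran from 0.0192 to 0.17 for PKM and from 0.0171 to 0.536 for PFKFB3. ENO1, at 0.50 (adjusted p = 0.0566 in limma), ALDOA, ALDOC, PGK1, PGAM1, GPI and ENO2 did not pass.

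Of the kinase genes that restrain pyruvate dehydrogenase, PDK1 was lower and PDK3 higher in REC-1. PDK1 was at 6.06 and 5.61 in REC-1 and 7.40 and 7.62 in Z138 (difference -1.68, SE 0.21, adjusted p = 0.00242 in limma). PDK3 was at 6.80 and 7.16 in REC-1 and 5.90 and 5.86 in Z138 (difference 1.10, SE 0.18, adjusted p = 0.00515 in limma). LDHA (-0.22) and LDHB (0.08) did not pass. SLC16A4, at 1.62 with an SE of 0.52, missed the threshold (adjusted p = 0.0507 in limma) and passed it under 5 of 9 alternatives. In the control arrays its 4 probe sets were 0.20 to 0.94 higher in REC-1.

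HIF1A and EGLN1 were higher in REC-1, while those of the 9 other hypoxia-inducible genes that passed were lower. Genes of the other roles went both ways, with SLC2A1 and PFKFB4 higher and PDK1 lower in REC-1. HIF1A was higher in REC-1 by 0.91 (SE 0.17, adjusted p = 0.00859 in limma), with all 8 probe sets between 0.62 and 0.88 higher in the REC-1 control. EGLN1 was higher in REC-1 by 1.11 (SE 0.16, adjusted p = 0.00388 in limma). Its 3 probe sets disagreed in size, from 0.14 to 1.24 higher in the REC-1 control (SD 0.55). EGLN3 did not differ past the threshold (-0.04). Of the 9 other hypoxia-inducible genes, 5 were lower in REC-1 (23.1% of all genes were) and none was higher (21.7% of all genes were) at this threshold. VEGFA, KDM3A, NDRG1 and BNIP3L were the rest. ANKRD37 differed by -3.03 (SE 0.33, adjusted p = 0.00145 in limma), 8.19-fold over both treatments. ADM differed by -2.40 (SE 0.32, adjusted p = 0.00274 in limma), with all 3 probe sets lower in the REC-1 control. BNIP3 (-1.16, adjusted p = 0.00296 in limma), HILPDA (-1.15, adjusted p = 0.00553 in limma) and P4HA1 (-1.03, adjusted p = 0.00508 in limma) were the others.

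BNIP3 was read by 2 probe sets that disagreed in size, -1.11 and -0.06 between the controls, and HILPDA by 2 at -0.90 and -0.14. BNIP3L (-0.53, adjusted p = 0.0869 in limma) did not pass, although all 6 of its probe sets were lower in the REC-1 control. VEGFA (-0.20), KDM3A (0.10), NDRG1 (0.06) and MIF (0.05) did not pass either. In ANKRD37, ADM, PDK1 and HILPDA every REC-1 value of the brightest probe set lay below every Z138 value, and CC-292 had the lower REC-1 value and the higher Z138 value. For these 4 genes the gap between the lines was therefore wider on the CC-292 arrays than on the control arrays. TPI1 had the same order, with smaller CC-292 differences of -0.05 in REC-1 and 0.03 in Z138. Of all genes, 31.4% were lower in REC-1 and higher in Z138 with CC-292, and 23.1% were lower in REC-1 at the limma threshold. The share with both was not counted, so the pattern is no result about these genes.

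**Figure D4:**
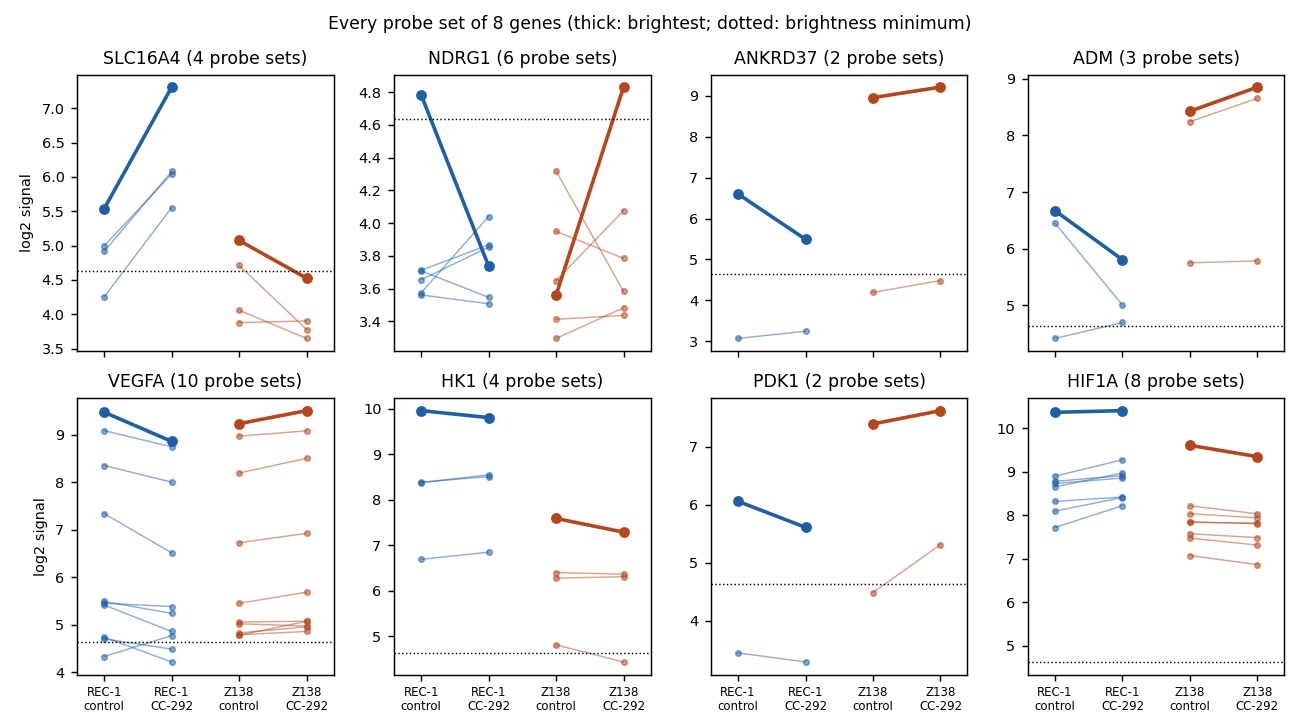
Log2 signal of every probe set of 8 genes on the 4 arrays, REC-1 in blue and Z138 in orange, each line joining control to CC-292; the thick line is the brightest probe set. The probe sets of SLC16A4 in REC-1, and of HK1 and HIF1A between the lines, run alike, whereas only 1 of 6 NDRG1 probe sets shows its differences.

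Genes of the same pathways outside the list were followed through 2 further lists. Of 41 genes of glycolysis, sugar transport and pyruvate use, 23 were kept, none was 2-fold different after CC-292 in either line, and medians were -0.12 in REC-1 and -0.02 in Z138. In limma 10 of the 23 were higher in REC-1 than in Z138, against 21.7% of all genes, and 4 lower, against 23.1%. The fructose transporter gene SLC2A5 was at 9.69 and 9.92 in REC-1 and 5.53 and 5.33 in Z138. Also higher in the REC-1 control by at least 2-fold were PFKFB2 (2.35), DLAT, a pyruvate dehydrogenase subunit gene (2.18), EMB, which encodes a chaperone of monocarboxylate transporters (2.04), and SLC2A8 (1.90). Lower by at least 2-fold were SLC16A7, a pyruvate and lactate transporter gene (-2.61), the muscle enolase gene ENO3 (-1.91) and GPD2 (-1.09).

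Of 40 further hypoxia-related genes, 31 were kept and none was 2-fold different after CC-292. Their median was -0.08 in REC-1, with 17 below 0, and -0.06 in Z138, also with 17 below 0, so these genes did not lie below 0 in REC-1 and above 0 in Z138 as most of the 9 listed ones did; the difference between the lists was not tested. Between the lines, 4 of the 31 were higher in REC-1 in limma, against 21.7% of all genes, and 12 lower, against 23.1%. At least 2-fold lower in the REC-1 control were KDM5B (-3.28), the stress gene DDIT4 (-2.42), the adenylate kinase gene AK4 (-1.97), P4HA2 (-1.77), MXI1 (-1.53), PPFIA4 (-1.12) and RAB20 (-1.11). BHLHE41, a circadian repressor gene, was at 10.01 and 10.47 in REC-1 and 3.21 and 3.42 in Z138, and GYS1 (1.97) and PLOD1 (1.08) were also higher in the REC-1 control. VHL (0.20) and ARNT (-0.05), partners in the HIF pathway, differed little between the controls.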

How the data were processed

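The deposited table holds log2 probe-set signals of 4 arrays. The authors made them with RMA and Affymetrix Expression Console 1.1, per the submitters' processing notes. The RMA settings and the arrays run together are unstated in the labels, and the log2 scale was inferred from the value range. Per the labels' protocols, 150 ng of Trizol-extracted RNA was labelled. Of 49386 probe sets, 45259 had 1 gene symbol, 1327 several and 2800 none. Symbols were checked by Entrez identifier against RefSeq (GRCh38.p14, 45178 matched, none changed). A gene took its brightest probe set by mean over the arrays, without array controls, and was kept if a value reached 4.63, the median of all values. Of the 36 chosen probe sets, 14 have the suffix _x_at, which marks probes that may also match other sequences such as pseudogene transcripts.

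Groups came from the GEO titles. Differences between arrays have no test. Averages were tested in R 4.3.3 with the package limma 3.58.1 (a linear fit with eBayes on 1 residual and 4.51 prior degrees of freedom), adjusted by Benjamini-Hochberg over 10823 genes, on what the labels show as 1 culture per group. The scripts were tested on simulated data. Tables and plots used pandas 2.3.3, numpy 2.4.6 and matplotlib 3.10.9 under Python 3.11.15. The arrays' number limits the precision, and depth has no counterpart. The members and lists were chosen with earlier results of these data known. Values are printed for members past 2-fold in a comparison of arrays and, by role, for the others; related genes are named where at least 2-fold different. VHL, ARNT and the probe-set detail were picked after values were seen.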

Additional observations from a re-analysis of the deposited data

Results flagged for a closer look

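In 4 genes the CC-292 difference had opposite signs in the lines and the difference of the differences, REC-1 minus Z138, was at least 2-fold. It was 2.32 for SLC16A4, -2.32 for NDRG1, -1.36 for ANKRD37 and -1.29 for ADM. With 1 array per group the difference was not tested. All 4 probe sets of SLC16A4 were higher with CC-292 in REC-1, and 3 of 4 were lower in Z138. For NDRG1 the value rests on 1 probe set with 2 values under the brightness minimum, and was -0.35 with these raised to it.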

How the results depend on the processing

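Under the alternatives, 134 of the summary values stayed close to the reported ones and 26 moved. At the 70th percentile of brightness, members at least 2-fold different numbered 1 lower in REC-1, 0 higher in Z138 and 2 higher between the controls, and the members' median in Z138 was -0.040. Averaging the probe sets of a gene, they numbered 0 lower in REC-1, 0 higher in Z138, 1 higher between the controls and 0 lower in the difference of the differences. With the probe set of median difference these were 0, 0, 1 and 1, and the REC-1 difference of NDRG1 reversed to 0.051. At 1.5-fold the counts were 5 lower in REC-1, 2 higher in Z138, 7 higher and 11 lower between the controls, and 2 higher and 7 lower in the difference of the differences. At 3-fold they were 0 lower in REC-1, 0 higher in Z138, 2 higher and 2 lower between the controls, and 1 lower in the difference of the differences. Cyclic loess moved the median of the difference of the differences to -0.084. An alternative chosen after seeing the data, values under the brightness minimum raised to it, gave 1 lower in REC-1 and 0 higher in Z138, and left 3 higher between the controls and 2 lower in the difference of the differences. The cause of the shifts under the other settings was not tested. Of the 18 line calls, 16 held under every alternative that kept the gene, and of the 18 members without a call 5 gained it under some alternative (GPI, ENO1, LDHA, SLC16A4 and BNIP3L). The CC-292 average gave 0 calls under every alternative. Leaving out an array leaves no residual degree of freedom, so this was not run. The labels carry no replicate numbers, so the only pairing of arrays is by cell line or treatment, which the limma fits hold as the block, and without it the CC-292 average also gave 0 calls.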
